A study of Mus musculus with 11 samples.

Results

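Ovaries of wild-type mice of 24 months were set against ovaries of 18 months, the step that the labels call reproductively old to post-reproductive. The comparison holds 3 samples of each age, 6 of the 10 samples of the series (7 of its 11 libraries), which also has 4 young ones of 2 months. Samples were chosen by their age label alone, and each was bulk RNA of whole ovary. The strain is not stated in the labels, nor whether a sample is 1 mouse or a pool. The library names of the 24 month group say 22 months and those of the 2 month group 8 weeks, and the ages of the sample labels are used here. The 18 month group had 4 libraries, but the counts of the third and the fourth differed by about counting noise (chi-square of 1.10 per gene, against 28.7 to 79.6 for the other pairs of that age). These 2 were summed and counted as 18 month replicate 3. Nothing in the labels says that the other samples came from separate animals, so p-values measure the spread between these samples only, which may be technical.

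The ovary makes oocytes inside follicles and turns cholesterol into steroid hormones. Theca and granulosa cells of a growing follicle do this together, and after ovulation the corpus luteum takes over and makes progesterone. Steroid-making cells obtain cholesterol from lipoproteins, from stored esters and by their own synthesis, and the protein Star moves it into mitochondria, where the first steroid is cut from it. With reproductive age follicles run out, ovulation stops, and the tissue that stays is rich in stroma, immune cells and vessels.

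Total counts were 14124639 to 32022325 for the 18 month samples and 26061630 to 32602760 for the 24 month samples. Counts were high enough for the test in 20331 of 54232 genes. Expression is given as CPM (counts scaled to a common library size with TMM factors), and where 3 values are given for an age they stand for replicates 1, 2 and 3 in that order. Log2 fold changes are 24 minus 18 months, from edgeR's quasi-likelihood test with all 3 ages in 1 model and a Benjamini-Hochberg adjusted p of 0.05 as the threshold. A second log2 fold change beside the first is that of the fit without 24 month replicate 3. Markers of ovarian cells were present in all 6 samples: Foxl2 of granulosa cells was at 161 to 205 CPM, Cyp17a1 of theca cells at 46.5 to 884 and Cyp11a1 of all steroid-making cells at 1558 to 10239.

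One library stood apart. In 24 month replicate 3 the ciliated cell regulator Foxj1 was at 189.8 CPM, against 0.896 and 21.4 in the other 24 month samples and 1.13 to 15.1 at 18 months. Ovgp1, the secreted glycoprotein of the oviduct, was at 381 CPM there and at 1.59 to 11.9 in the 18 month samples. Summed over 3 markers of oviduct ciliated cells the level was 261 CPM in that sample and 4.18 to 24.6 CPM in the other 5 samples, and over 3 markers of oviduct secretory cells it was 451 against 4.37 to 57.3 CPM. The part of oviduct-like RNA in the differences below was not tested, so results are also given without that sample.

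Between the 2 ages 1 gene passed the test. It was higher at 24 months, 0.00492% of the 20331 genes tested, and none (0%) was lower. At an unadjusted p of 0.05, 1191 genes (5.86%) were higher and 917 (4.51%) lower. All 3 samples of 24 months lay above all 3 of 18 months for 1368 genes (6.73%) and below them for 1090 (5.36%). DESeq2 called more genes from the same counts, 76 higher (0.39% of the 19491 to which it gave an adjusted p) and 111 lower (0.569%). In 69 of those 76 and 97 of those 111 the groups did not overlap. Without 24 month replicate 3 edgeR called none, with 1579 genes at an unadjusted p of 0.05, limma-voom called 2, Ptpn5 and Tmem200a, and DESeq2 called 195. Without 24 month replicate 1 edgeR called a different gene, Ampd3, and without 18 month replicate 3 it called Ptpn5 and Gal3st2c. The median log2 fold change over all tested genes was 0.03 with every sample and 0.01 without that one.

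The gene that passed was Ptpn5, the striatal-enriched tyrosine phosphatase known from neurons, which removes phosphate from the MAP kinases Erk1/2 and p38 and from Src-family kinases. Its counts in the libraries of 18 months were 61, 50, 16 and 27, the last 2 of them summed, and 364, 511 and 491 at 24 months. As CPM these were 2.16, 1.58 and 2.85 at 18 months and 13.6, 14.5 and 14.3 at 24 months. The groups lay far apart, and the 3 samples of 24 months lay closer together than those of 18 months. On the log2 scale Ptpn5 rose by 2.70 (SE 0.269, with 0.0372 as edgeR's adjusted p), from 2.20 ± 0.637 to 14.1 ± 0.493 CPM (SD, n = 3 each). At 2 months it was at 0.934 to 1.49 CPM in 4 samples, below each of the 18 month values.

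The size of the Ptpn5 difference held in every fit, at 2.50 to 2.92, and DESeq2 (adjusted p = 7.62e-25) and limma-voom (0.00317) called it too. Its edgeR adjusted p was near the threshold and went past it in many of the other fits. It was 0.306 with the replicate number as a block over the 2 ages, 0.524 with that block over 3 ages, 0.464 with the 2 ages fitted alone and 0.0944 with library totals in place of TMM. Without 24 month replicate 3 it was 0.0514, and without 24 month replicate 1 or 2 it was 0.102 and 0.0878. Without 18 month replicate 1 or 2 it was 0.297 and 0.19, and without 2 month replicate 1, 2 or 4 it was 0.145, 0.167 and 0.133.

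Ptpn5 (ENSMUSG00000030854) is a protein-coding gene on the minus strand at chr7:47077795-47133684 (GRCm38). An antisense gene, Gm14377, lies inside it at chr7:47110851-47125990 on the other strand, and since it is not known here whether the counting used strand, reads of the 2 cannot be told apart with certainty. Counted on its own, Gm14377 was at 0.496 to 0.757 CPM at 18 months and 0.448 to 1.95 at 24 months, well under Ptpn5 at 24 months, and its groups overlapped. The outer of 2 RefSeq promoter windows (GRCm38.p6, minus strand, chr7:47133635-47133934, from 250 bases before the start to 50 after it) is printed because it is the start region of the gene that passed. The capitals mark the one match to GAAANNGAA, the core of the interferon-stimulated response element, searched on both strands.
Ptpn5: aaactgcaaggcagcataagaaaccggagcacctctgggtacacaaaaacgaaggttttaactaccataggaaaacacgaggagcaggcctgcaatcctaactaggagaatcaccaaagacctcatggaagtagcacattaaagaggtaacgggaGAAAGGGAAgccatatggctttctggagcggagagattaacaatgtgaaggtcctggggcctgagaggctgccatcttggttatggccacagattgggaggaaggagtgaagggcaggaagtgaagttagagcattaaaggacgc
The match begins 95 bases before the start, and 9.76% of 27025 genes with promoter windows of this length hold one. It is a match of letters and no measure of binding.

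Tyrosine phosphatases and the kinases that they act on lay in both directions. In a list of 18 such genes, Ptpn5 among them, the median was -0.02 (-0.03 without 24 month replicate 3), with 9 positive and 9 negative. Of the 18, 1, Ptpn5 itself, was higher in every 24 month sample (6.73% of all genes) and 3 were lower in every one (5.36% of all). Mapk3, the kinase Erk1, was at 318, 276 and 275 CPM at 18 months and 225, 199 and 221 at 24 months (log2 fold change -0.43, SE 0.139, edgeR adjusted p = 0.443). Dusp1, an early-response phosphatase of MAP kinases, was at 328, 189 and 141 CPM at 18 months and 59.3, 17.1 and 66.1 at 24 months (log2 fold change -2.21, and -2.51 without 24 month replicate 3). Dusp5, a nuclear phosphatase of Erk, was at 44.9, 11.8 and 13.9 CPM at 18 months and 11.01, 8.56 and 8.55 at 24 months. In all 3 of these, every 24 month sample lay below every 18 month sample and none passed the test. Dusp1 and Dusp5 were chosen after their values were seen.

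The rule for named genes took the 10 genes in each direction with the smallest p among those that differed by at least 2-fold, reached a mean of 5 CPM at either age, had an established symbol and did not overlap. There were 66 such genes higher and 88 lower. In each list of genes named below, the 2 members with the smallest p were named as well, and all members of sterol synthesis. Apart from Ptpn5 none of the 20 passed edgeR's test, with adjusted p between 0.314 and 0.387, while DESeq2 called all 20. Their log2 fold changes ran from 1.11 to 3.25 and from -1.16 to -4.01.

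Among those higher at 24 months, Il1rl1 encodes ST2, the receptor of interleukin 33 found on mast cells, type 2 lymphoid cells and regulatory T cells. It was at 0.567, 0.568 and 0.53 CPM at 18 months and 9.07, 1.82 and 5.12 at 24 months, a difference of 3.25 in log2 units (SE 0.542, with 0.387 as edgeR's adjusted p; 3.28 without 24 month replicate 3). The 18 month samples were nearly equal, and of the 24 month samples the first was highest and the second lowest, an order shared with the mast cell genes below. Its ligand Il33, chosen after its values were seen, was at 9.07, 15.3 and 27.6 CPM at 18 months and 17.8, 24.6 and 23.8 at 24 months, with overlapping groups.

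H2-Q6, a nonclassical class I gene of the Qa-2 region, was at 13.3, 9.33 and 11.001 CPM at 18 months and 21.5, 23.8 and 27.4 at 24 months (log2 fold change 1.11, SE 0.187, edgeR adjusted p = 0.387; 1.03 without 24 month replicate 3). The lowest 24 month sample was well above the highest 18 month one. Its neighbour H2-Q4 was at 28.2, 30.8 and 43.4 CPM at 18 months and 60.2, 62.3 and 57.3 at 24 months and did not overlap either, whereas H2-Q7, at 9.04, 0.473 and 7.49 CPM at 18 months and 9.29, 8.45 and 19.2 at 24 months, and H2-Q10, at 2.80, 14.98 and 5.10 CPM at 18 months and 6.75, 6.57 and 3.46 at 24 months, did. These neighbours, named after their values were seen, are near-identical copies, so the counting could split reads between them and the value of each is uncertain.

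The other higher genes had varied roles. Hmcn2, a large matrix protein of the hemicentin family, was at 1.205, 1.17 and 2.19 CPM at 18 months and 4.74, 6.94 and 5.12 at 24 months. Ngef, an exchange factor for small GTPases downstream of Eph receptors, was at 4.36, 6.09 and 6.56 CPM at 18 months and 17.02, 11.4 and 16.7 at 24 months. Kcnt1, a sodium-activated potassium channel, was at 19.6, 21.2 and 35.1 CPM at 18 months and 56.6, 63.1 and 46.5 at 24 months. In these 3 the ages were separate by a narrow to moderate gap, with log2 fold changes of 1.90, 1.41 and 1.14. Klhl31, a kelch-repeat protein best known from muscle, had the widest spread, from 17.1 to 42.2 CPM at 18 months to 69.4 to 208 at 24 months (log2 fold change 2.15; 2.46 without 24 month replicate 3). Ass1, the argininosuccinate synthase of arginine production, was at 5.78, 5.99 and 9.54 CPM at 18 months and 15.1, 16.2 and 21.7 at 24 months (log2 fold change 1.32). Smim10l2a (log2 fold change 1.18) and Serp2 (1.43), which encode small membrane proteins, completed the set. Neu2 overlaps Ngef and an antisense gene overlaps Smim10l2a, so part of their reads may belong to those genes.

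In 8 of these 10 genes the 2 month mean lay below the 18 month mean, and in all 10 it lay below the 24 month mean. For the 10 lower genes the 2 month mean was above the 24 month mean in all 10 and above the 18 month mean in 7. These genes were chosen for 24 month values set apart from 18 months, so the order against 24 months is partly fixed by that choice.

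Of the lower genes, Coch had the smallest p. It encodes cochlin, a secreted matrix protein known from the inner ear, and was at 20.9, 50.95 and 31.3 CPM at 18 months and 3.32, 6.40 and 7.09 at 24 months. The difference was -2.61 (SE 0.356, edgeR adjusted p = 0.314, DESeq2 adjusted p = 1.83e-09), and -2.81 without 24 month replicate 3. The ages lay far apart, with the highest 24 month sample well below the lowest of 18 months. At 2 months Coch was at 15.97 to 19.9 CPM, between the 2 older ages.

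Mmel1, a membrane metallopeptidase related to neprilysin, was at 115, 62.3 and 62.3 CPM at 18 months and at 20.04, 17.3 and 18.5 at 24 months (log2 fold change -2.10, SE 0.32, edgeR adjusted p = 0.387; -2.08 without 24 month replicate 3). The 3 values of 24 months were almost equal. Apof, an apolipoprotein of plasma lipoproteins, went from 4.39, 3.75 and 12.8 CPM to 0.411, 0.427 and 0.436 CPM (log2 fold change -4.01, SE 0.732). Those 24 month values come from 11, 15 and 15 counts, so counting error is large in them. At 2 months Mmel1 was at 114 to 229 CPM and Apof at 2.95 to 17.99 CPM.

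The steroid and lipid genes Star, Plin5 and Dhcr7 were also among the lower genes. Star was at 8819.9, 6009.5 and 5375 CPM at 18 months and 1475, 1254 and 570.0 CPM at 24 months, and at 6627 to 20211 CPM at 2 months. Every 24 month sample was below every sample of both younger ages, with the third lowest (log2 fold change -2.61, SE 0.487, edgeR adjusted p = 0.387; -2.29 without 24 month replicate 3). Plin5, a coat protein of lipid droplets, was at 23.99, 21.2 and 55.9 CPM at 18 months and 10.1, 14.1 and 7.82 at 24 months (log2 fold change -1.65), and Dhcr7 is described with its pathway below. In bulk tissue, fewer cells of a type and less RNA per cell cannot be told apart, here or in the lists that follow.

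Avpi1, an early vasopressin-induced gene, was at 107, 57.7 and 73.2 CPM at 18 months and 31.8, 26.3 and 12.7 at 24 months (log2 fold change -1.75). Il15ra, which holds interleukin 15 for presentation to lymphocytes, was at 81.7, 36.95 and 37.3 CPM at 18 months and 17.2, 14.4 and 17.2 at 24 months (log2 fold change -1.68). Amotl2, an angiomotin of cell junctions and the Hippo pathway, was at 132, 142 and 217 CPM at 18 months and 73.8, 64.02 and 72.2 at 24 months (log2 fold change -1.22), and Mest, an imprinted gene, at 13.04, 20.2 and 14.1 CPM at 18 months and 6.79, 8.05 and 6.31 at 24 months (-1.16). Within each of these 4 genes the 24 month values were close together, apart from Avpi1, where the third was less than the others.

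**Figure D1:**
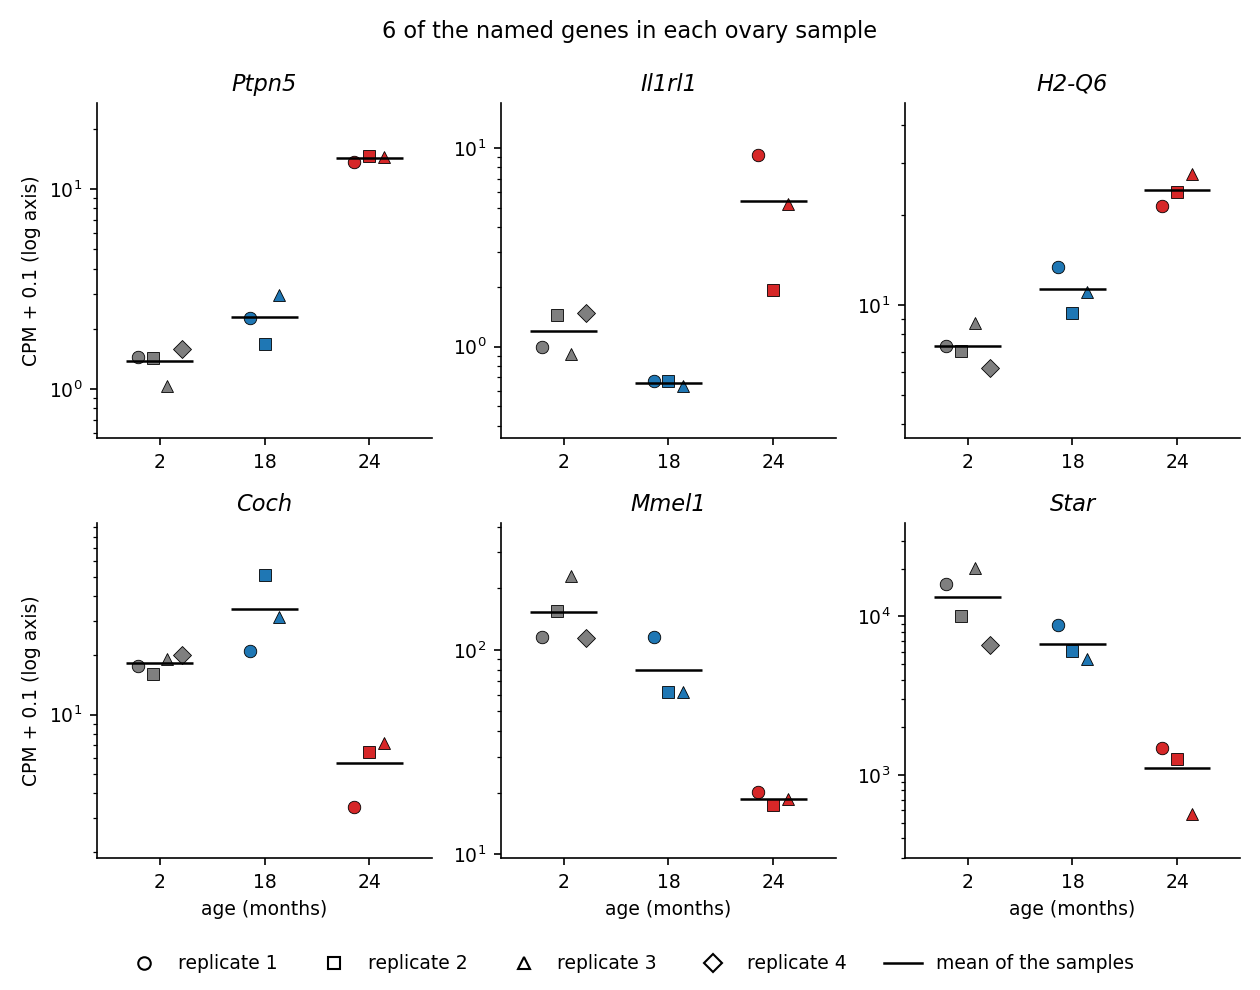
CPM plus 0.1 on a log axis for 6 named genes in every sample, by age in months; symbols mark the replicate and the bar is the arithmetic mean of the samples. Ptpn5, Il1rl1 and H2-Q6 lie higher and Coch, Mmel1 and Star lower in all 3 samples of 24 months than in all 3 of 18 months; Ptpn5 alone passed edgeR's adjusted test.

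The enzymes of sterol synthesis were lower together. They turn acetyl-CoA into cholesterol through mevalonate, squalene and lanosterol. Of 20 genes on that route, all 20 had a negative log2 fold change, with a median of -1.27, against 0.03 over all tested genes. None passed edgeR's test, 15 had an unadjusted p under 0.05 (4.51% of all genes), and DESeq2 called 5 (0.569% of all). For 9 of the 20 every 24 month sample lay below every 18 month sample (5.36% of all genes). Without 24 month replicate 1 the median was -1.99. Without 24 month replicate 3 it was -0.92, 19 of the 20 were negative and 10 were lower at an unadjusted p under 0.05. Of all 20331 tested genes, 641 were lower at that p without that sample.

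The samples of 24 months differed among themselves. Summed over the 20 genes the level was 9877, 4602 and 7384 CPM in the 18 month samples and 6609, 1821 and 1958 CPM in those of 24 months. By this sum replicate 1 of 24 months was inside the 18 month range, and the other pair lay below it. Of the 6609 CPM in replicate 1, 2929.7 came from Hsd17b7, against 899 of the 4602 CPM in 18 month replicate 2. The place of replicate 1 inside the 18 month range therefore rests on that gene. The lowest value of the 6 samples was in 24 month replicate 3 for 17 of the 20 genes.

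By step, the early enzymes named here were Hmgcs1 and Acat2. Hmgcs1, which makes the precursor of mevalonate, was at 1029, 585 and 864 CPM at 18 months and 697, 301 and 126 at 24 months (log2 fold change -1.14; -0.72 without 24 month replicate 3). Its groups overlapped, as 24 month replicate 1 was above 18 month replicate 2. Acat2, which joins acetyl-CoA units before it, did not overlap, at 157, 78.04 and 100.2 CPM at 18 months and 70.3, 40.6 and 26.7 at 24 months (log2 fold change -1.29).

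Of the middle enzymes, Mvk (log2 fold change -0.85), Mvd (-1.31), Idi1 (-1.19), Fdft1 (-0.62), Sqle (-1.25) and Lss (-1.33) overlapped between the ages, and Pmvk (-1.39) did not. Fdps, the farnesyl diphosphate synthase at the branch to prenylation, had the largest difference among them, from 81.3, 45.9 and 64.7 CPM to 25.9, 13.6 and 5.64 CPM (log2 fold change -2.09, SE 0.506, DESeq2 adjusted p = 0.00731; -1.69 without 24 month replicate 3). Gm43738 and the small nuclear RNA gene Gm22935 overlap Fdps on its own strand.

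The late enzymes that trim lanosterol to cholesterol held most of the separation. Dhcr7, which reduces 7-dehydrocholesterol to cholesterol, was at 863, 543 and 745 CPM at 18 months and 255, 97.8 and 91.1 at 24 months, and at 654 to 1576 CPM at 2 months. The log2 fold change came to -2.28 (SE 0.452, edgeR adjusted p = 0.387, DESeq2 adjusted p = 0.000243; -2.02 without 24 month replicate 3), the largest of the 20 with and without that sample. The highest 24 month sample was far below the lowest 18 month one.

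Cyp51, the lanosterol demethylase, was at 547, 321 and 441 CPM at 18 months and 224, 115 and 53.996 at 24 months (log2 fold change -1.74; -1.36 without 24 month replicate 3), and Tm7sf2, a sterol reductase that follows it, at 139, 69.1 and 155 CPM at 18 months and 58.7, 19.1 and 17.2 at 24 months (-1.93; -1.63 without that sample), where Vps51 overlaps Tm7sf2 on the same strand. Nsdhl was at 229, 129 and 177 CPM at 18 months and 110.1, 57.3 and 37.7 at 24 months (log2 fold change -1.38; -1.08 without that sample). Msmo1 (log2 fold change -1.30) and Ebp (-0.996) did not overlap either, while Sc5d (-0.81) did. Hsd17b7 (log2 fold change -0.68), which also acts on estrone in luteal cells, had a wide spread, from 899 to 3081 CPM at 18 months and from 121 to 2929.7 at 24 months.

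**Figure D2:**
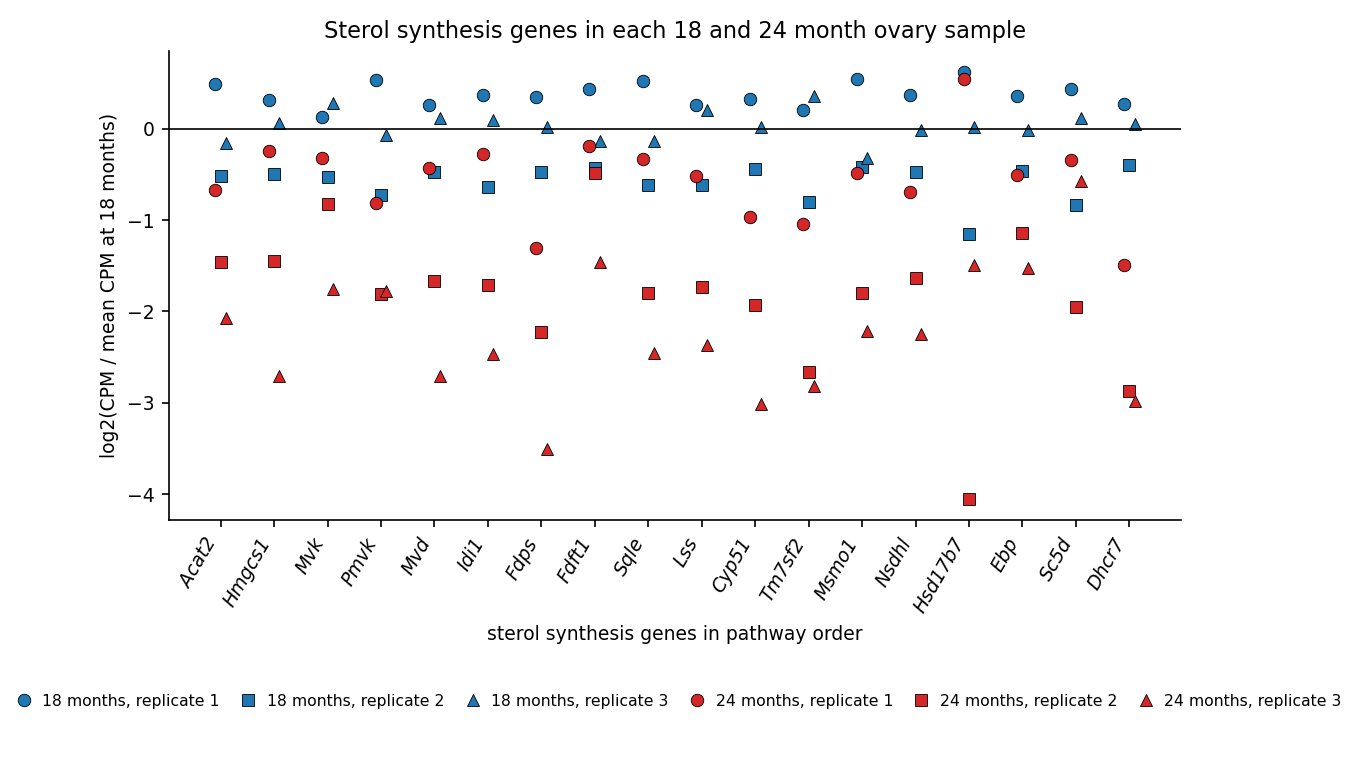
Log2 of each sample's CPM over the 18 month mean for sterol synthesis genes in pathway order; blue symbols are the 3 samples of 18 months and red symbols the 3 of 24 months. All 3 samples of 24 months lie below those of 18 months for Fdps, Cyp51, Tm7sf2 and Dhcr7, 24 month replicate 1 is the nearest to the 18 month samples for most genes, and Hsd17b7 has the widest spread.

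Promoters of 15 of the 20 genes matched the RefSeq table. The sterol regulatory element was searched as TCACNCCAC on both strands and was found in 1 of the 15, Hmgcs1, against 1.44% of all genes, and the half-site of steroidogenic factor Nr5a1 and its relative Nr5a2, CAAGGTCA, was found in 1, Dhcr7, against 1.76%. In lists described below, the sterol element was found in 0 of 14 promoters of sterol control genes. The half-site was found in 0 of 10 promoters of steroid hormone synthesis and in 0 of 10 of corpus luteum genes. In sterol synthesis the 2 motifs lay in different genes and so did not overlap. Both windows are printed as the start regions of the single holder of each motif, of which Dhcr7 also had the largest difference of the pathway (GRCm38.p6, plus strand, chr13:119690101-119690400 and chr7:143822917-143823216), with the match in capitals.
Hmgcs1: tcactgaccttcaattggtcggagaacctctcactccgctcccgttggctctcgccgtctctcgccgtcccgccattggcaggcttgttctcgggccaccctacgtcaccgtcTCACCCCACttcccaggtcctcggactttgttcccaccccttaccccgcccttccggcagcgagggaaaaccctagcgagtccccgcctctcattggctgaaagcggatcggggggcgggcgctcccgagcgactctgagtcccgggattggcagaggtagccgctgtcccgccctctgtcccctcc
Dhcr7: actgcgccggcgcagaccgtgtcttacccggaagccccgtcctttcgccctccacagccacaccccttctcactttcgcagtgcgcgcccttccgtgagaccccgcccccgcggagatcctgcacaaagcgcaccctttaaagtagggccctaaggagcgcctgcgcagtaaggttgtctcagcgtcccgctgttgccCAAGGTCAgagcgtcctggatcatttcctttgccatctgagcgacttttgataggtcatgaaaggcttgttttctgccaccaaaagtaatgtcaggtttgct
The matches begin 137 and 52 bases before the start. Nothing is drawn from the windows without a match.

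Genes that control sterol supply were less uniform. In the list of 19 the median was -0.28 (-0.22 without 24 month replicate 3), with 15 negative. Of the 19, 2 were lower in every sample (5.36% of all genes). Srebf2, the transcription factor of the pathway, was at 322, 221 and 237 CPM at 18 months and 300.4, 189.8 and 152 at 24 months (-0.28; -0.07 without that sample), and Scap, its escort protein, had a log2 fold change of -0.31 (-0.05). Scarb1, the HDL receptor through which ovarian cells take up cholesterol esters, was at 4125, 2533 and 2870.4 CPM at 18 months and 2192, 657 and 434 at 24 months (log2 fold change -1.54, SE 0.578, edgeR adjusted p = 0.464; -1.15 without that sample). Lipe, the lipase that frees stored cholesterol esters, was at 65.1, 46.7 and 59.5 CPM at 18 months and 39.6, 30.6 and 21.7 at 24 months (log2 fold change -0.90; -0.69 without that sample). Both were lower in all 24 month samples. The regulator Srebf2 and its escort overlapped, and so did the target Insig1 (log2 fold change -1.03; -0.66 without that sample), named like Srebf2 and Scap after their values were seen.

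Fatty acid genes split. Their median was -0.35 over 12 genes (-0.17 without 24 month replicate 3). Acss2, which makes acetyl-CoA from acetate, was at 130.4, 77.9 and 85.03 CPM at 18 months and 45.5, 22.4 and 25.4 at 24 months (log2 fold change -1.65, DESeq2 adjusted p = 0.0481; -1.52 without that sample), and Acly, which makes it from citrate, was at 1205, 768 and 1024 CPM at 18 months and 812, 580.5 and 317 at 24 months (-0.81). Fasn, the fatty acid synthase, chosen after its values were seen, lay the other way at 309, 383 and 409.6 CPM at 18 months and 496, 534 and 433 at 24 months (log2 fold change 0.41). Acss2 was lower and Fasn higher in every 24 month sample, and Acly overlapped. In the adipocyte list (median 0.08, 0.35 without that sample) the lipid droplet gene Plin4 was at 298, 229 and 247 CPM at 18 months and 71.5, 96.1 and 12.3 at 24 months (-2.10, DESeq2 adjusted p = 0.0265; -1.61 without that sample), whereas Adipoq, the defining adipokine, was at or under 2.33 CPM in all 6 samples. Cidea, a lipid droplet protein and the other member with a small p, was high in 24 month replicate 3 alone (0.448, 0.683 and 8.35 CPM against 0.265 to 0.536 at 18 months).

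Genes of steroid hormone synthesis lay in both directions. The list of 16, which includes Star, had a median of -0.29 (-0.05 without 24 month replicate 3). In every sample 2 of its genes, 1 of them Star, were lower (5.36% of all genes) and 1 higher (6.73% of all). Cyp11a1, which cleaves the cholesterol side chain, was at 10239, 5771 and 6486 CPM at 18 months and 9463, 4562 and 1558 CPM at 24 months (log2 fold change -0.53; -0.09 without that sample). Hsd3b1, which makes progesterone from pregnenolone, was at 8192, 5704 and 6775 CPM at 18 months and 9221, 5582 and 2782 at 24 months (log2 fold change -0.23; 0.11 without that sample). Both overlapped, with 24 month replicate 3 lowest, and both differences were close to 0 without it. Fdx1, the electron donor of Cyp11a1, was lower in every sample, at 1728, 1054 and 1059 CPM at 18 months and 948, 602 and 255 at 24 months (log2 fold change -1.09; -0.71 without that sample).

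Some steroid genes lay higher in part of the 24 month samples. Hsd3b6, the adrenal and testis form of the enzyme, was at 0.177, 0.189 and 0.265 CPM at 18 months and 2.13, 0.683 and 0.756 at 24 months, from at most 6 counts in an 18 month library and 24 to 57 at 24 months (log2 fold change 2.50, SE 0.542, DESeq2 adjusted p = 0.0481). Cyp17a1, the androgen-forming enzyme of theca cells, was at 191, 46.5 and 194 CPM at 18 months and 884, 205 and 114 at 24 months, and Srd5a1, the 5-alpha reductase, at 23.7, 14.98 and 24.5 CPM at 18 months and 86.8, 49.3 and 23.2 at 24 months. Of these Hsd3b6 separated the ages, and in Cyp17a1 and Srd5a1 24 month replicate 1 was high and replicate 3 at the 18 month level. Cyp11b1, the corticosteroid enzyme, was at 33.3 CPM in 24 month replicate 2 and at 4.03 and 0 in the others. Cyp11a1, Hsd3b1, Fdx1, Cyp17a1, Srd5a1 and Cyp11b1 were named after their values were seen.

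Corpus luteum genes had a median of -0.93 over 11 (-0.81 without 24 month replicate 3 and -1.73 without 24 month replicate 1), 10 of them negative. Of the 11, 2 were lower in every sample (5.36% of all genes). Ptgfr, which receives the prostaglandin F signal for regression, was at 2315, 1527 and 919 CPM at 18 months and 849, 181 and 219.7 at 24 months (log2 fold change -1.93, SE 0.618, edgeR adjusted p = 0.443; -1.61 without that sample). Parm1, a membrane glycoprotein of luteal cells, was at 83.3, 92.5 and 77.01 CPM at 18 months and 33.1, 35.97 and 56.4 at 24 months (log2 fold change -1.01, DESeq2 adjusted p = 0.048; -1.28 without that sample). The gap was narrow for Ptgfr and wider for Parm1.

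Akr1c18, the enzyme that inactivates progesterone at the end of luteal life, was not alike in the 18 month samples. It was at 4003, 3919 and 49.7 CPM at 18 months and 21.6, 447 and 11.4 CPM at 24 months, so 18 month replicate 3 stood with the 24 month samples. A like order was seen in Sfrp4, a secreted Wnt antagonist, at 10432, 7019 and 1770.4 CPM at 18 months and 3449.9, 1103 and 936 at 24 months. Tnc, tenascin, was at 2589.7, 2960.2 and 308 CPM at 18 months and 124, 572 and 55.9 at 24 months, and Cdkn2b, the cell cycle inhibitor p15, at 189, 150.3 and 7.69 CPM at 18 months and 8.70, 19.3 and 12.4 at 24 months. Cd28, the T cell costimulator, was at 96.2, 37.3 and 2.25 CPM at 18 months and 2.20, 2.28 and 1.83 at 24 months (log2 fold change -4.43, DESeq2 adjusted p = 0.0175), while the T cell receptor subunit Cd3e was at 4.75, 3.41 and 4.90 CPM at 18 months and 2.31, 4.13 and 8.20 at 24 months. Each of these but Cd3e was high in 18 month replicates 1 and 2 and much lower in 18 month replicate 3. Akr1c18, Sfrp4, Tnc and Cd3e were chosen after their values were seen.

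Receptor genes lay in both directions. Over 12 receptor and nuclear factor genes the median was -0.39 (-0.49 without 24 month replicate 3). Nr5a2, a nuclear receptor needed for ovulation, was lower in every sample, at 507, 299 and 525 CPM at 18 months and 283, 87.5 and 227 at 24 months (log2 fold change -1.16; -1.26 without that sample), while its relative Nr5a1 was at 249, 215 and 316 CPM at 18 months and 492, 494 and 232 at 24 months (0.64; 0.93 without that sample). Esr1, estrogen receptor alpha, was at 70.7, 111 and 113 CPM at 18 months and 121, 121 and 124 at 24 months, higher in every sample (log2 fold change 0.31). Fshr (log2 fold change -0.28) and Lhcgr (-0.71), the gonadotropin receptors, overlapped. All but Nr5a2 were chosen after their values were seen.

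Oocyte genes were few in counts at both ages. The 25 genes had a median of -1.21 (-0.82 without 24 month replicate 3, -0.75 without 24 month replicate 2 and -2.30 without 24 month replicate 1), 22 of them negative. Of the 25, 5 were lower at an unadjusted p under 0.05 (4.51% of all genes) and 1 in every sample (5.36% of all). Gdf9, the growth factor of the oocyte, was at 13.5, 6.62 and 9.01 CPM at 18 months and 9.18, 1.28 and 2.62 CPM at 24 months, against 39.8 to 106 CPM at 2 months. Zp3, of the zona pellucida, was at 7.26, 3.69 and 4.57 CPM at 18 months and 4.40, 0.711 and 0.989 at 24 months against 24.8 to 59.9. In both, 24 month replicate 1 lay within the 18 month range and replicates 2 and 3 lay below it. Lhx8 (0.709, 0.41 and 0.199 CPM at 18 months and 0.224, 0.0285 and 0.0872 at 24 months) and Sohlh1 (0.283, 0.221 and 0.199 CPM at 18 months and 0.187, 0.0854 and 0.0291 at 24 months), transcription factors of primordial follicles, were under 1 CPM in every one of these samples. Gdf9 and Zp3 were chosen after their values were seen.

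Granulosa cell genes had a median of -0.10 over 17 (-0.13 without 24 month replicate 3, and 0.01 with library totals in place of TMM). It was 0.17 without 24 month replicate 2, -0.44 without 24 month replicate 1 and -0.84 with limma-voom, so its sign depends on single samples. Without 24 month replicate 3, 5 genes were lower in every sample and 5 at an unadjusted p under 0.05, against 1 and 1 with it. Over all 20331 tested genes the same counts were 1754 and 641 without it, against 1090 and 917 with it. Foxl2, which keeps granulosa identity, was at 161, 203 and 198 CPM at 18 months and 161, 169 and 205 at 24 months (log2 fold change -0.07, SE 0.19). Amh, made by growing follicles, was at 15.02, 32.6 and 27.2 CPM at 18 months and 11.8, 7.23 and 28.8 at 24 months, and Cyp19a1, the aromatase, at 81.3, 22.2 and 39.8 CPM at 18 months and 67.9, 3.30 and 66.2 at 24 months. All 3 overlapped between the ages. Aromatase and the activin subunit Inhba (717, 247 and 357 CPM at 18 months and 925, 37.4 and 703 at 24 months) were lowest in 24 month replicate 2. Kitl, the ligand through which granulosa cells act on the oocyte, was at 23.7, 71.2 and 39.03 CPM at 18 months and 196, 45.6 and 153 at 24 months (log2 fold change 1.56; 1.44 without that sample), with replicate 2 again the low sample of its age. Foxl2, Amh, Cyp19a1 and Inhba were chosen after their values were seen.

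In the theca list the median was 0.45 over 10 (0.38 without 24 month replicate 3 and 0.27 without 24 month replicate 1), 8 of them positive and 2 negative. Star, described above, is in this list too and had its smallest p. It was the 1 member lower in every 24 month sample (5.36% of all genes), and 0 were higher in every one (6.73% of all). The summed level of the list, which leans on Star, was 9884, 7167 and 7196 CPM at 18 months and 5119, 3611 and 1918 at 24 months. Aldh1a1, a retinoic acid enzyme, was at 330.1, 491 and 791 CPM at 18 months and 1658, 968 and 687 at 24 months. Cell division genes had a median of -0.34 over 24, 23 of them negative, and of -0.08 without 24 month replicate 3, which was lowest in 21 of them. Cdk1, the mitotic kinase, was at 18.4, 12.2 and 13.3 CPM at 18 months and 12.9, 11.4 and 7.44 at 24 months against 28.7 to 54.9 at 2 months, and Cenpe, a kinetochore motor, at 14.4, 11.1 and 11.8 CPM at 18 months and 12.6, 7.63 and 5.82 at 24 months. No division gene was at an unadjusted p under 0.05.

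Class I antigen presentation lay higher at 24 months in part of its genes. Of 13 genes 5 were higher in every sample (6.73% of all genes), 4 at an unadjusted p under 0.05 (5.86% of all), none passed edgeR or DESeq2, and the median was 0.40 (0.45 without 24 month replicate 3 and 0.17 without 18 month replicate 2, the lowest sample in 8 of the 13). Psmb8 and Psmb9, catalytic subunits of the immunoproteasome, were at 22.5, 16.96 and 21.8 and 18.4, 12.4 and 19.6 CPM at 18 months and at 29.3, 35.9 and 31.2 and 25.04, 28.99 and 26.5 CPM at 24 months. Their log2 fold changes were 0.65 and 0.68. B2m, the light chain, was at 519, 365 and 507 CPM at 18 months and 635, 758 and 638 at 24 months, and Nlrc5, the class I transactivator, at 13.04, 8.67 and 19.7 CPM at 18 months and 33.8, 23.5 and 25.4 at 24 months. Both separated the ages, and both were chosen after their values were seen, like H2-D1. H2-D1 was at 555, 60.7 and 379 CPM at 18 months and 487, 500.4 and 872 at 24 months against 36.2 to 76.2 at 2 months, low in 18 month replicate 2 and high in the rest, and its reads may be shared with other class I genes.

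All 10 class II genes tested had a positive log2 fold change, with a median of 0.29 (0.27 without 24 month replicate 3, 0.13 without 18 month replicate 2 and 0.48 without 18 month replicate 3). Of the 10, 2 were higher in every sample (6.73% of all genes). H2-DMb2, a peptide-loading chain, was at 2.41, 2.40 and 2.52 CPM at 18 months and 3.66, 5.18 and 6.43 at 24 months (log2 fold change 1.06, SE 0.268, DESeq2 adjusted p = 0.0304), and H2-Oa, a chain that restrains loading, was at 0.496, 0.315 and 0.199 CPM at 18 months and 0.522, 0.711 and 1.05 at 24 months. Cd74, the invariant chain and the most abundant of the list, was at 393, 260.1 and 370.0 CPM at 18 months and 408, 319 and 371 at 24 months, with overlapping groups. H2-Eb1 did not follow age at all, at 5.28, 95.3 and 49.8 CPM at 18 months and 84.9, 70.5 and 5.73 at 24 months, low in 18 month replicate 1 and 24 month replicate 3 and high in the other 4. Cd74 and H2-Eb1 were chosen after their values were seen.

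Interferon response genes had a median of 0.74 over 23 (0.91 without 24 month replicate 3, 0.30 without 24 month replicate 2 and 1.27 without 18 month replicate 3), 21 of them positive. Of these genes 2 were higher at an unadjusted p under 0.05 (5.86% of all genes) and 1 in every sample (6.73% of all). Ifit1, a sensor of foreign RNA caps, was at 8.96, 7.85 and 16.2 CPM at 18 months and 12.8, 41.3 and 19.1 at 24 months (log2 fold change 1.16, SE 0.503, edgeR adjusted p = 0.476). Isg15, a ubiquitin-like modifier, was at 6.34, 5.14 and 11.3 CPM at 18 months and 7.02, 24.98 and 9.65 at 24 months, and Irf7, the factor that amplifies the response, at 13.3, 9.81 and 41.4 CPM at 18 months and 26.2, 72.8 and 24.7 at 24 months. In all 3, 18 month replicate 3 and 24 month replicate 2 were the high samples of their ages, and the groups overlapped. Irf1 was at 60.8, 59.97 and 65.9 CPM at 18 months and 75.2, 68.7 and 77.8 at 24 months, a small difference (log2 fold change 0.25) with no overlap. Isg15 and Irf7 were chosen after their values were seen.

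The interferon response genes were also compared by their start regions. GAAANNGAA, on either strand, was in the promoter of 12 of the 16 with a RefSeq window (75%) and of 3 of 11 class I presentation genes (27.3%), against 9.76% of all. The window of Isg15 is printed because its copies overlap each other (GRCm38.p6, minus strand, chr4:156200769-156201068), with the matches in capitals, the first 2 of 3 overlapping ones beginning 78 and 72 bases before the start.
Isg15: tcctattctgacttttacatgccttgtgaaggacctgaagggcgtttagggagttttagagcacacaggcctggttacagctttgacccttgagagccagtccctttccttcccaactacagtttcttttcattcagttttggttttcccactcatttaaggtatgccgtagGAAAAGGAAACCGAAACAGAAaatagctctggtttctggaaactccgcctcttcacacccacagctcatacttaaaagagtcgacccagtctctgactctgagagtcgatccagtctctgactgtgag
Ptpn5, printed above, holds a single copy.

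Mast cell genes were high in part of the 24 month samples. Cpa3, the mast cell carboxypeptidase, was at 0.602, 0.473 and 0.0663 CPM at 18 months and 38.6, 0.569 and 19.8 CPM at 24 months. Cma1, a chymase, was at 0.532, 0.504 and 0.0663 CPM at 18 months and 40.3, 0.512 and 16.7 at 24 months, and Tpsb2, a tryptase, at 0.602, 0.347 and 0 CPM at 18 months and 46.5, 0.654 and 18.2 at 24 months. Replicates 1 and 3 of 24 months were high, and replicate 2 was at the level of the 18 month samples. Over 8 tested genes of the list the median was 5.35 (5.37 without 24 month replicate 3, 2.35 with limma-voom and 0.37 over those that reach 5 CPM in 3 samples). Of the 8, 6 were higher at an unadjusted p under 0.05 (5.86% of all genes), 2 in every sample (6.73% of all), and DESeq2 called 3 (0.39% of all). The edgeR adjusted p of Cpa3 was 0.401 (log2 fold change 5.57, SE 1.43) and that of Cma1 0.435. Hdc, the histamine enzyme, which luteal and other cells also make, was at 41.1, 31.2 and 63.1 CPM at 18 months and 43.4, 39.4 and 76.1 at 24 months. Tpsb2 and Hdc were chosen after their values were seen. Proteases of this family are close copies of each other, so reads may be shared between them.

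Macrophage genes had a median of 0.18 over 16 (0.19 without 24 month replicate 3). Of the 16, 1, Marco, was higher in every 24 month sample (6.73% of all genes) and 0 were lower in every one (5.36% of all). Csf1r, the receptor that macrophages depend on, was at 86.04, 87.6 and 98.7 CPM at 18 months and 86.8, 119 and 93.7 at 24 months (log2 fold change 0.14), and C1qa was at 131, 91.9 and 107 CPM at 18 months and 128, 115 and 103 at 24 months. Both overlapped and neither reached the threshold. Marco, a scavenger receptor, was higher in every sample but at 0.252 to 0.283 CPM at 18 months and 0.427 to 0.698 CPM at 24 months, and Cd163, another, was at 2.73, 2.14 and 3.31 CPM at 18 months and 2.99, 8.76 and 5.87 at 24 months. Csf1r and C1qa were chosen after their values were seen.

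In the list of lipid-laden and giant cell macrophages (median 0.17 over 13, 0.11 without 24 month replicate 3), the lipid receptor Trem2 was at 12.5, 7.35 and 14.2 CPM at 18 months and 20.4, 21.5 and 21.6 at 24 months (0.90, SE 0.354, edgeR adjusted p = 0.465). Its 24 month values were nearly equal and all above the 18 month ones. Gpnmb, a glycoprotein of foamy macrophages, chosen after its values were seen, was at 94.6, 37.5 and 164 CPM at 18 months and 149.9, 101 and 398 at 24 months, highest in 24 month replicate 3. Mmp9, a gelatinase, was at 37.9, 34.3 and 9.87 CPM at 18 months and 4.78, 15.4 and 9.19 at 24 months. Complement genes had a median of 0.07 over 13 (0.12 without 24 month replicate 3), and none was at an unadjusted p under 0.05. Its members with the smallest p were C1ra (log2 fold change 0.36), a protease of the first component, and C3ar1 (0.40), an anaphylatoxin receptor.

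For lymphocyte genes the list medians changed sign without 24 month replicate 3. The T cell list had a median of 0.23 over 17 and of -0.27 without that sample, the B cell list 0.42 over 11 and -0.20, and the plasma cell list 0.33 over 9 and -0.31. Immunoglobulin constant regions went from 0.91 over 10 to -1.48. Igkc, the kappa light chain, chosen after its values were seen, was at 255, 74.8 and 279 CPM at 18 months and 55.4, 83.6 and 1027 CPM at 24 months, against 1.55 to 9.38 at 2 months. Ighg2c was at 57.9, 13.8 and 32.7 CPM at 18 months and 10.002, 15.5 and 349 at 24 months, and Lat, the adaptor of T cell signalling, at 4.64, 2.11 and 2.45 CPM at 18 months and 2.16, 4.01 and 7.85 at 24 months. In each, the third 24 month sample was the highest of the 6. The first and second 24 month samples lay below or within the 18 month range for Igkc and Ighg2c. Immunoglobulin genes are near-identical in parts, so reads may be shared between them.

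Eomes, a factor of cytotoxic and natural killer cells, was higher in every sample, at 0.85, 0.536 and 1.06 CPM at 18 months and 2.69, 1.45 and 3.29 at 24 months (log2 fold change 1.62; 1.37 without 24 month replicate 3). Its list had a median of 0.31 over 11 (0.56 without that sample), with Gzmb, granzyme B, at 0.602, 0.725 and 0.265 CPM at 18 months and 1.87, 0.654 and 0.204 at 24 months. Blk, a kinase of B cells, had a log2 fold change of 0.98, and of 0.37 without that sample. Iglc1 (log2 fold change -2.81) and the plasma cell genes Sdc1 (-1.08) and Eaf2 (0.46) overlapped.

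Cytokine and chemokine genes had small medians. The cytokine and inflammasome list had a median of 0.26 over 13 (0.18 without 24 month replicate 3) and the chemokine list 0.05 over 18 (-0.11 without that sample). Tgfb1, a growth factor that drives matrix formation, was at 96.8, 85.04 and 51.2 CPM at 18 months and 47.7, 53.3 and 33.96 at 24 months (log2 fold change -0.79; -0.61 without that sample). Il1rn, the antagonist of interleukin 1, was at 16.4 CPM in 24 month replicate 3 and at 1.48 to 3.51 in the other 5 samples. Neither separated the ages. Cxcl14 (-0.48) and Ccl22 (0.55) had the smallest p of the chemokines, and the neutrophil list (median -0.04 over 4) held S100a8 (-0.40) and Csf3r (-0.09).

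**Figure D3:**
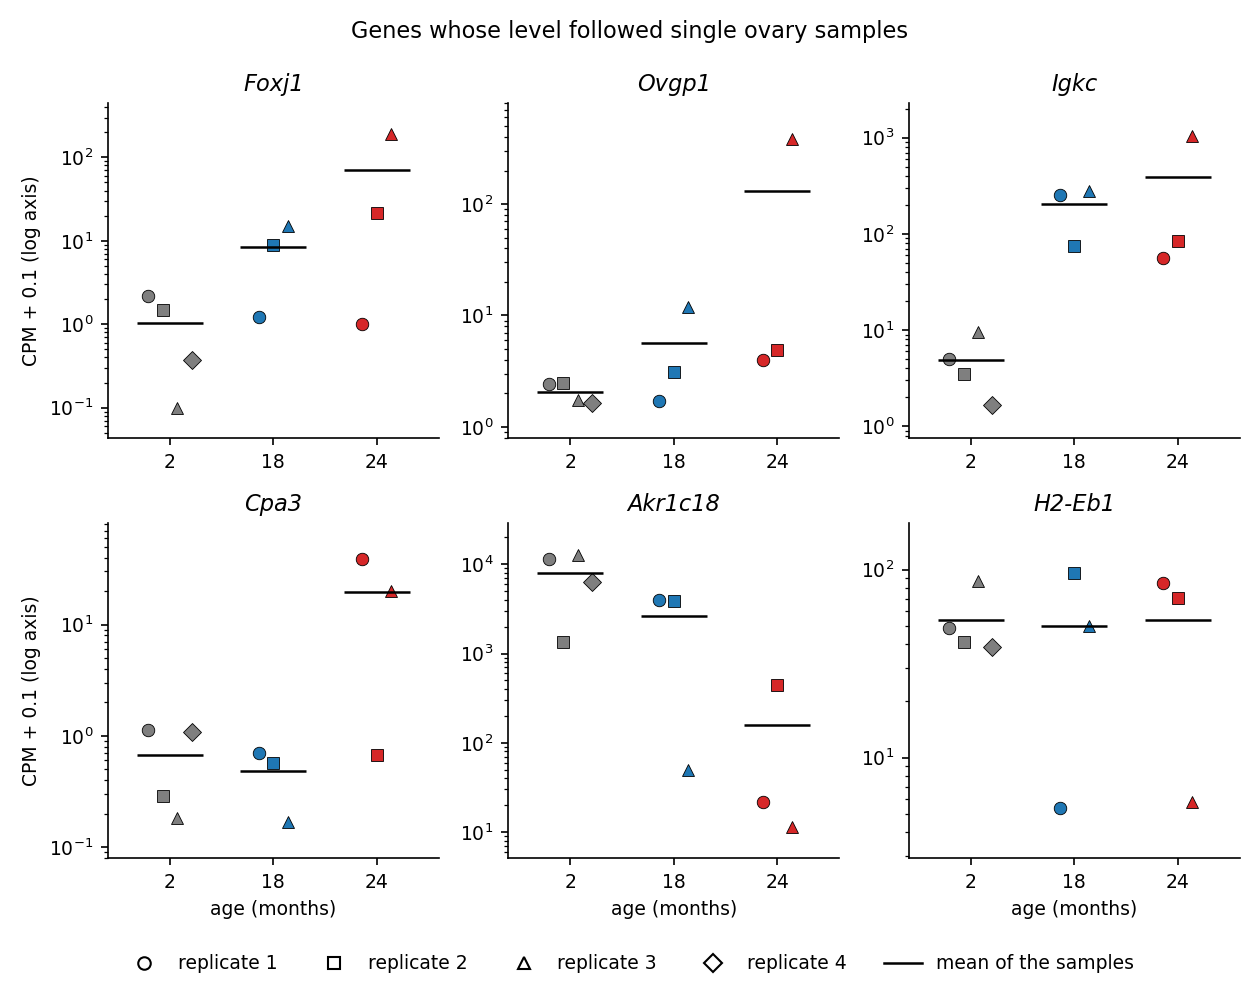
CPM plus 0.1 on a log axis for 6 genes in every sample, by age in months; symbols mark the replicate and the bar is the arithmetic mean of the samples. Foxj1, Ovgp1 and Igkc are highest in 24 month replicate 3, Cpa3 is high in 24 month replicates 1 and 3, Akr1c18 is low in 18 month replicate 3 as in the 24 month samples, and H2-Eb1 is low in 18 month replicate 1 and 24 month replicate 3.

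Cilia and oviduct lists were highest in 24 month replicate 3. Motile cilia genes had a median of 2.52 over 15 and of 0.13 without that sample. Tppp3, a tubulin-binding protein of cilia, was the one gene of the list higher in every 24 month sample (6.73% of all genes). It was at 8.11, 9.24 and 19.3 CPM at 18 months and 21.3, 33.1 and 148 at 24 months (log2 fold change 2.48, DESeq2 adjusted p = 0.0193; 1.17 without 24 month replicate 3), and Dnah9, an outer arm dynein, was at 4.75, 5.74 and 13.1 CPM at 18 months and 9.07, 16.3 and 97.2 at 24 months. Oviduct and Mullerian secretory genes had a median of 0.94 over 11 and of -0.23 without it, and Wfdc2, a secreted protease inhibitor, was at 1.42, 1.92 and 1.86 CPM at 18 months and 1.46, 7.54 and 12.4 at 24 months. Surface epithelium genes had a median of -0.01 over 12 (-0.30 without it). Their summed CPM was 899 in 24 month replicate 3 and 844 in 18 month replicate 2, but their median level was highest in 18 month replicate 2. Upk3b, a mesothelial uroplakin, was at 98.01, 239.6 and 116 CPM at 18 months and 66.7, 115 and 102 at 24 months and Aldh1a2 at 85.9, 105 and 153 CPM at 18 months and 207, 298 and 123 at 24 months. Sertoli cell genes had a median of 0.40 over 7 (0.05 without 24 month replicate 3), with Ptgds at 43.2 CPM in 24 month replicate 1 and between 5.24 and 10.8 in the rest, and Rhox5 under 1 CPM throughout.

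Matrix genes differed one by one. Dcn, the proteoglycan decorin, which binds collagen fibrils, was at 656, 719 and 847 CPM at 18 months and 919, 1584 and 1451 CPM at 24 months (log2 fold change 0.83, SE 0.235, edgeR adjusted p = 0.435; 0.77 without 24 month replicate 3), and at 190.1 to 298 at 2 months. Sparc, which binds collagen as cells make it, was at 3493, 2509 and 2535 CPM at 18 months and 1445, 1869 and 804 at 24 months (log2 fold change -1.05, SE 0.306, edgeR adjusted p = 0.443; -0.77 without that sample). Dcn was higher and Sparc lower in every 24 month sample. They were the 1 higher (6.73% of all genes) and the 1 lower (5.36% of all) such gene among the 23 tested of the matrix list. The matrix list as a whole had a median of -0.07 over 23 (-0.01 without that sample) and the collagens -0.06 over 15 (0.14 without that sample). Col4a2, of basement membranes, was lower in every sample at 596, 678 and 586 CPM at 18 months and 497, 555 and 232 at 24 months, with 24 month replicate 3 far under the others, and Col6a3 was at 186, 263 and 247 CPM at 18 months and 245, 459 and 328 at 24 months (log2 fold change 0.57). The fibrillar collagen gene Col1a1, chosen after its values were seen, was at 287, 838 and 502 CPM at 18 months and 376, 799 and 220.3 at 24 months, with broad overlap.

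Vessel, muscle and nerve lists had these medians. They were 0.03 for 15 blood endothelial genes, -0.11 for 7 lymphatic ones and 0.09 for 15 of smooth muscle and pericytes, the last at 0.45 without 24 month replicate 3. Cdh5, the endothelial cadherin, was at 153, 137 and 149.5 CPM at 18 months and 124, 125 and 64.5 at 24 months, Vegfa at 274, 125 and 339 CPM at 18 months and 208, 155 and 131 at 24 months. Mmrn1 (log2 fold change -0.19) and Flt4 (-0.16), of lymphatic vessels, and Notch3 (-0.52) and Pdgfrb (-0.48), of pericytes, overlapped. Nerve and glia genes had a median of 0.34 over 10 (-0.13 without that sample), where Mbp was at -0.79 and Tubb3 was high in 24 month replicates 1 and 2 (8.43, 8.51 and 11.7 CPM at 18 months and 40.4, 27.7 and 5.44 at 24 months). The 5 erythroid genes, a measure of blood in the tissue, had a median of -1.87 (-1.60 without that sample, but -0.55 without 18 month replicate 1, the highest sample, and -2.86 without 24 month replicate 1). Hbb-bt was at 13.1, 3.69 and 5.30 CPM at 18 months and 3.43, 0.939 and 1.37 at 24 months and Alas2 at 19.2, 3.59 and 4.04 CPM at 18 months and 5.26, 1.79 and 2.27 at 24 months.

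Antioxidant enzymes lay in both directions, with a list median of 0.01 over 20 (0.01 without 24 month replicate 3). In every sample 3 were higher (6.73% of all genes) and 2 lower (5.36% of all). Gstm1, a glutathione transferase, was at 438, 554 and 617 CPM at 18 months and 903, 1002 and 1134 CPM at 24 months (log2 fold change 0.92, SE 0.16, edgeR adjusted p = 0.387, DESeq2 adjusted p = 3.85e-05; 0.84 without that sample). Gclc, the catalytic subunit of the rate-limiting step of glutathione synthesis, was at 111, 100.4 and 156 CPM at 18 months and 225, 217 and 225 at 24 months (log2 fold change 0.86, SE 0.161, edgeR adjusted p = 0.387, DESeq2 adjusted p = 0.00161; 0.86 without that sample). In both every 24 month sample was above every 18 month sample, and the 24 month values lay close together. Nqo1, a quinone reductase, had the same order at 7.94, 5.58 and 10.3 CPM at 18 months and 15.3, 12.6 and 11.9 at 24 months (log2 fold change 0.75).

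Sod2, the mitochondrial superoxide dismutase, was lower instead, at 190.3, 136 and 206 CPM at 18 months and 102, 83.8 and 94.1 at 24 months (log2 fold change -0.93, SE 0.204, DESeq2 adjusted p = 0.00831; -0.92 without 24 month replicate 3). Gpx1, a glutathione peroxidase, was at 328, 350.4 and 316 CPM at 18 months and 188, 184 and 136 at 24 months (log2 fold change -0.97; -0.82 without that sample). Neither gene overlapped between the ages. At 2 months Sod2 was at 154 to 241 CPM and Gpx1 at 256 to 784 CPM, and Gstm1 was at 290.1 to 353. Nqo1, Sod2 and Gpx1 were chosen after their values were seen.

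**Figure D4:**
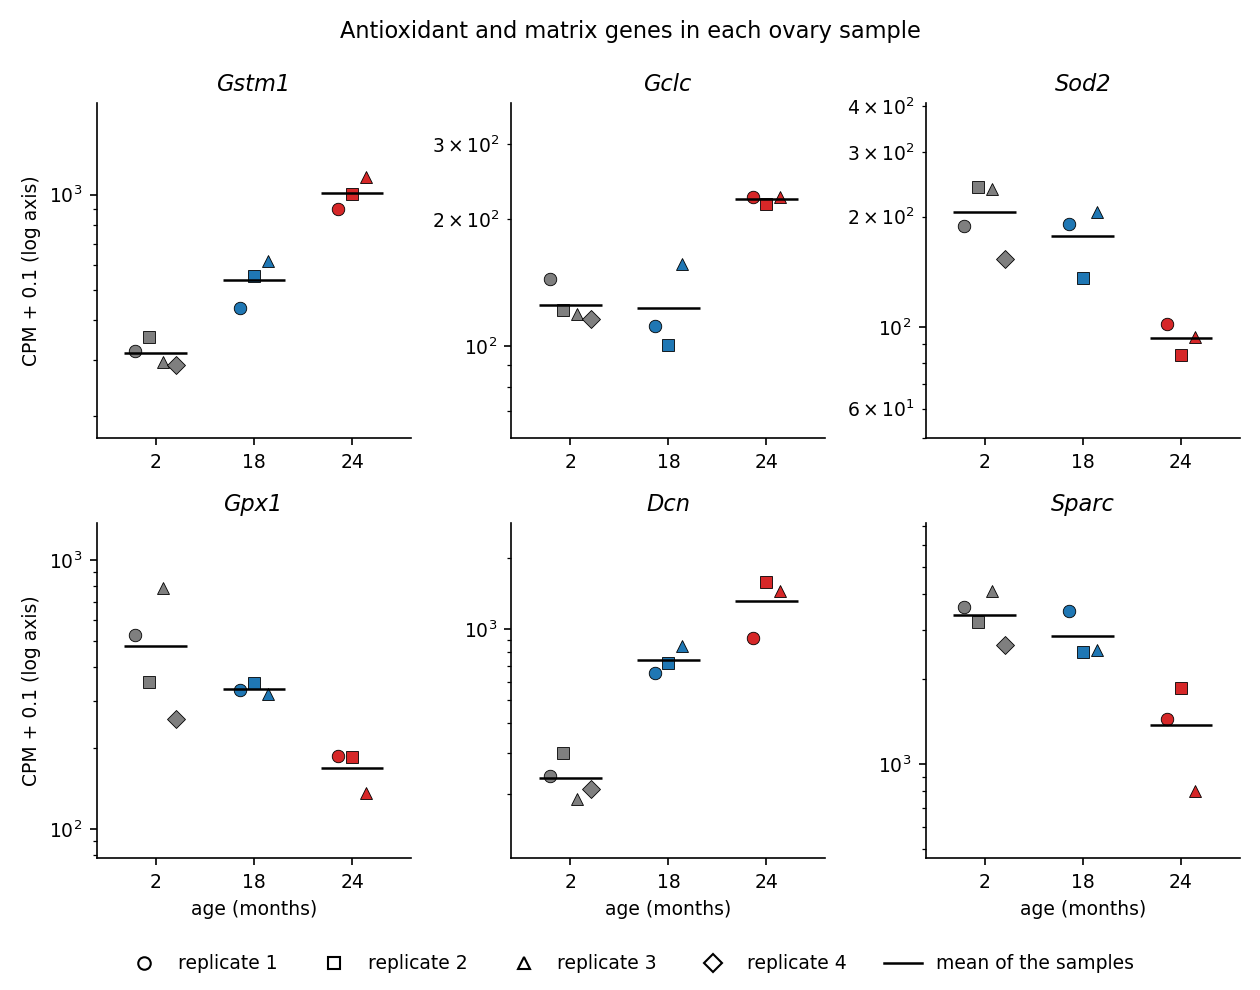
CPM plus 0.1 on a log axis for 4 antioxidant and 2 matrix genes in every sample, by age in months; symbols mark the replicate and the bar is the arithmetic mean of the samples. Gstm1, Gclc and Dcn lie higher and Sod2, Gpx1 and Sparc lower in all 3 samples of 24 months than in all 3 of 18 months, and none passed edgeR's adjusted test.

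Genes of housekeeping machinery had small medians. Cytosolic ribosome genes had a median of 0.13 over 24 (0.14 without 24 month replicate 3) with 6 higher in every sample (6.73% of all genes) and 0 at an unadjusted p under 0.05, and Rpl5 was at 177, 180.2 and 155 CPM at 18 months and 192, 216 and 209.7 at 24 months and Rps19 at a log2 fold change of 0.32. Oxidative phosphorylation genes had a median of -0.15 over 25 (-0.05 without that sample), with Ndufa4 at -0.34 and Cox5a at -0.34, and proteasome genes -0.08 over 20 (-0.005 without that sample), with Psmd11 at -0.24 and Psmc1 at -0.22. With library totals in place of TMM the median of all genes was higher by 0.0973, and the ribosome, oxidative phosphorylation and proteasome medians were 0.22, -0.05 and 0.02, so the sign of the last depends on the scaling. The small medians of the granulosa, collagen, matrix, surface epithelium, neutrophil and phosphatase lists turned positive under that scaling too. Chaperones of the endoplasmic reticulum had a median of -0.36 over 13 (-0.33 without that sample), all negative, with Calr at 1593, 1119.7 and 875 CPM at 18 months and 968, 685 and 686 at 24 months and Creld2 at -0.72. Immediate early and heat shock genes had a median of -0.17 over 12 (-0.09 without that sample), where Dnajb1 was lower in every sample (-0.50) and Jun overlapped (-0.96).

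The last lists concerned growth control. Cell cycle inhibitors and senescence genes had a median of 0.08 over 12 (0.11 without 24 month replicate 3), with Gdf15, a stress cytokine, at 1.10, 1.26 and 0.928 CPM at 18 months and 1.94, 1.48 and 2.15 at 24 months. TGF-beta and Wnt genes had a median of 0.07 over 20 (-0.08 without that sample), where Bmp6 was lower in every sample at 35.3, 40.5 and 28.8 CPM at 18 months and 27.99, 21.4 and 20.8 at 24 months (-0.58). The IGF system had a median of 0.10 over 14 (0.11 without that sample), where Pappa2, a protease that frees IGF, was at 1.13, 1.36 and 2.32 CPM at 18 months and 5.15, 8.96 and 1.77 at 24 months and Igfbp2 at 0.76. Gdf15 and Bmp6 separated the ages by a narrow gap, and Pappa2 overlapped through 24 month replicate 3. Of the 47 lists, 45 had a median that moved by over 1.5 times or changed sign when 1 of the 6 samples was left out.

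**Figure D5:**
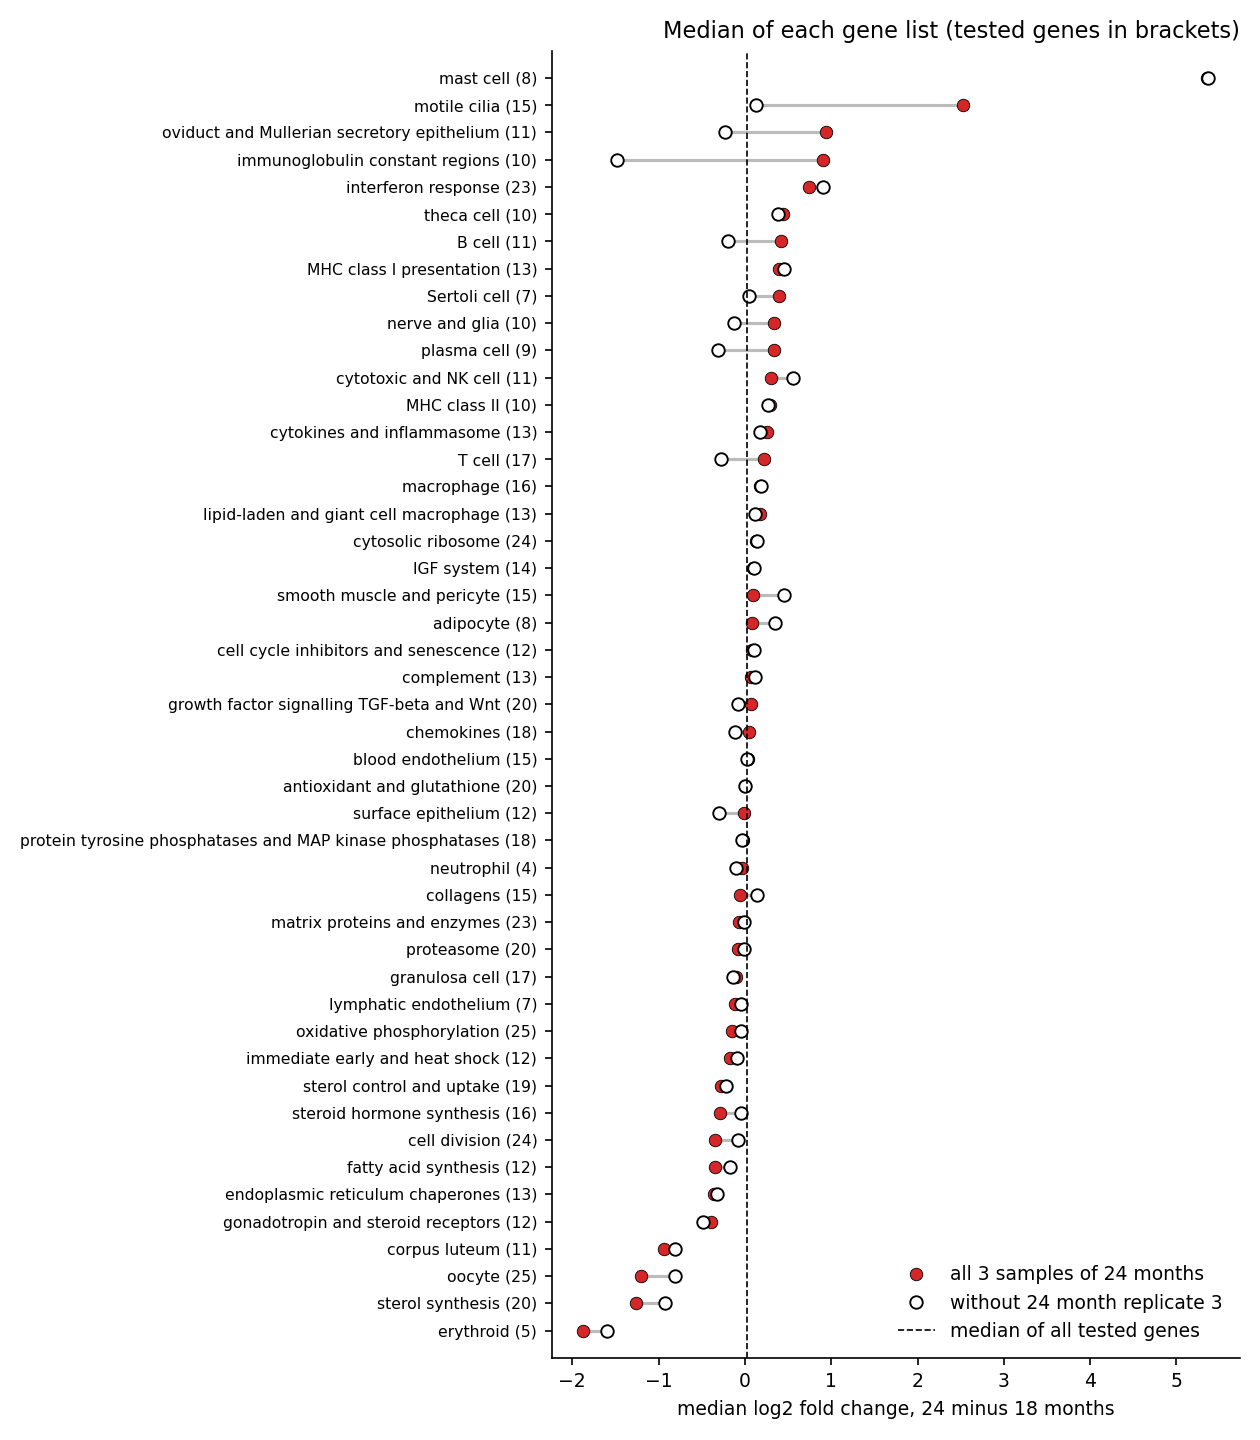
Median log2 fold change, 24 minus 18 months, of the tested genes of each list, with every sample (red) and without 24 month replicate 3 (open); the dashed line is the median of all tested genes. Erythroid, sterol synthesis, oocyte and corpus luteum genes lie lowest with every sample, mast cell genes highest in both fits, and cilia, oviduct and immunoglobulin genes lose their high position without that sample; medians near 0 change sign with the scaling.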

How the data were processed

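RNA of whole mouse ovary was sequenced in bulk, and the authors deposited 1 table of raw counts per gene for 11 libraries, annotated with gene names. Per the submitters' processing notes, FastQC, cutadapt, STAR and HTSeq were used with the mm10 build, and for versions, annotation and strand setting the entry is: not given in the sources used here. Counts were tested as deposited with edgeR 4.0.16 (R 4.3.3; glmQLFit with robust estimation, filterByExpr, TMM), with 2, 18 and 24 months in 1 model of 10 samples (7 residual degrees of freedom, biological coefficient of variation 0.32), and CPM used the TMM library sizes. 18 month libraries 3 and 4 were summed. DESeq2 1.42.0 (no adjusted p for 840 genes) and limma 3.58.1 (voom with sample weights), other scalings and filters, left-out samples and a replicate block were alternatives. Fits were tested on simulated data first. Same-numbered samples of the 2 ages had correlated deviations from the age means (0.398, 0.283 and 0.148, the third with the summed library). Pairs of unlike numbers ran from -0.339 to 0.144, so the third value is close to the highest of those. The labels do not pair them, so the main fit used no pairing, and the replicate block was fitted only as an alternative. The ages, the 47 gene lists (647 of 686 genes tested) and the alternatives were chosen with earlier results of these data known. Named were genes passing the test, the 10 higher and 10 lower ones described in the text, 2 per list by smallest p and the sterol pathway; some of these are not reported here. A part of the rule for genes called without 24 month replicate 3 found none. Promoters are from RefSeq (GRCm38.p6), which has entries for 27025 genes.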

Additional observations from a re-analysis of the deposited data

How the results depend on the processing

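Of the genes called, edgeR gave 1 under size factors of DESeq2, no count filter, a minimum of 5 CPM in 3 samples, all 11 libraries apart and 18 month replicate 4 in place of the sum. The limma-voom test, in place of edgeR's, also gave 1, and the gene was Ptpn5 each time. The count was 0 with library totals (2163 genes at an unadjusted p of 0.05), with the 18 and 24 month samples alone (1371), and with the replicate block over 3 ages (1877) or over these 2 (2002), and 187 with DESeq2. The pairing by replicate number moved no other call of edgeR. Leaving out 1 sample in turn gave 0 to 2 calls, and without 24 month replicate 3 the 2 ages fitted alone gave 0 (1093 genes at an unadjusted p of 0.05), limma-voom 2 and DESeq2 195, the last 2 chosen after seeing the data. Log2 fold changes turned sign in these genes. The Ovgp1 log2 fold change ran from -0.31 (without 24 month replicate 3) to 5.80 over left-out samples, and without that replicate it was -0.32 in the 2 ages alone and -0.33 with DESeq2. The Ighg2c log2 fold change ran from -1.43 (without 24 month replicate 3) to 2.42, was -0.36 with limma-voom, and without that replicate -1.45 (2 ages), -1.17 (limma-voom) and -1.46 (DESeq2). Without that sample the Blk log2 fold change was -0.017 with limma-voom and the Lat log2 fold change -0.0014 with DESeq2. The Gzmb log2 fold change ran from -0.34 (without 24 month replicate 1) to 1.19, and the Csf3r log2 fold change from -0.33 to 0.071, being 0.018 without 18 month replicate 1 and highest without 18 month replicate 3. The cause was not tested. Genes under about 1 CPM rest on few counts.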

Other observations

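Several genes outside the lists separated the ages, and all were chosen after their values were seen. Rxfp1, the relaxin receptor, was at 0.106, 0.126 and 0.133 CPM at 18 months and 3.58, 4.52 and 0.64 CPM at 24 months, with the smallest 24 month value in replicate 3 (log2 fold change 4.55, SE 0.83, edgeR adjusted p = 0.387, DESeq2 adjusted p = 0.00116). Rln1, the gene of its ligand relaxin, was at 35.97, 0.252 and 0.464 CPM at 18 months and 1.49, 0.114 and 516 at 24 months, high in 24 month replicate 3 and 18 month replicate 1. Serpina6, the corticosteroid carrier of plasma, was high in the same 2 samples, at 206 CPM in 18 month replicate 1 and 1337 CPM in 24 month replicate 3. Neither Rln1 nor Serpina6 separated the ages.

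Cd44, the hyaluronan receptor, had the tightest groups of these genes, at 31.3, 30.995 and 32.01 CPM at 18 months and 48.03, 48.3 and 50.3 at 24 months, and 12.5 to 16.9 CPM at 2 months (log2 fold change 0.64, SE 0.117, edgeR adjusted p = 0.387, DESeq2 adjusted p = 0.000312). Nrip1, a corepressor of nuclear receptors that ovulation needs, was at 133, 154 and 185 CPM at 18 months and 303, 259 and 234 at 24 months. Aqp5, a water channel, was at 5.49, 13.2 and 11.3 CPM at 18 months and 21.9, 30.4 and 43.1 at 24 months, and Kif26b, a kinesin, at 5.21, 7.54 and 7.09 CPM at 18 months and 13.6, 17.8 and 21.3 at 24 months. Phyhip and Astn2, known from the brain, had log2 fold changes of 1.94 and 1.605. All of these were higher in every 24 month sample. Mpc2, a subunit of the mitochondrial pyruvate carrier, was lower in every 24 month sample, at 86.1, 64.01 and 78.7 CPM at 18 months and 44.1, 33.3 and 34.8 at 24 months, and so was Ptx3, a pentraxin of the cumulus matrix, at 4.82, 8.32 and 7.02 CPM at 18 months and 3.21, 3.61 and 2.18 at 24 months.

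Some large differences belonged to part of an age. Adh7, a retinol dehydrogenase, was at 38.4, 49.03 and 161 CPM at 18 months and 692, 791 and 138 at 24 months, so 24 month replicate 3 was within the 18 month range. Tmem200a, called by limma-voom without that sample, was at 4.71, 4.70 and 6.49 CPM at 18 months and 35.6, 29.9 and 2.06 at 24 months, with 24 month replicate 3 below the 18 month samples. Ampd3, an AMP deaminase, was at 24.9, 22.1 and 28.1 CPM at 18 months and 27.02, 72.7 and 73.4 at 24 months, and 24 month replicate 1 was the one at the 18 month level. Gal3st2c, a sulfotransferase, was at 111, 97.9 and 1.19 CPM at 18 months and 2.39, 3.22 and 0.843 at 24 months, and here 18 month replicate 3 stood with the 24 month samples. The same was seen for Onecut2, a homeobox factor, at 355, 291 and 9.28 CPM at 18 months and 6.01, 33.3 and 0.814 at 24 months, and for Cyp4f18, a fatty acid hydroxylase, at 211, 377 and 6.43 CPM at 18 months and 53.2, 5.95 and 9.92 at 24 months. At 2 months, Gal3st2c was at 61.6 to 151 CPM and Onecut2 at 114 to 485 CPM.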
